A study of Mus musculus with 6 samples.

Results

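The Hox genes encode homeodomain transcription factors that stand in 4 clusters in the mouse genome, Hoxa, Hoxb, Hoxc and Hoxd. They were examined here in the ventral prostate. A member was any non-control probe whose gene, by the array file or by its RefSeq accession, was a Hox gene with a cluster letter and a position number. This gave 49 probes for 38 genes, out of 41174 non-control probes on the array, and the reference gene table holds 39 protein-coding Hox genes. Hoxc11 had no probe, and 11 of the genes had 2 probes each.

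In the embryo, Hox genes are switched on along the body axis in the order in which they lie in each cluster, so that genes of low position number act towards the head and those of high number towards the tail. The genes at the high end pattern the urogenital tract, and the developing prostate is known to need several of them. Hoxb13 is the member best known from the prostate, where it is made in luminal cells and binds DNA together with the androgen receptor. Hoxa10, Hoxa11, Hoxa13 and Hoxd13 are known from the mesenchyme of the urogenital tract and from the growth and branching of its glands.

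RNA came from ventral prostates of FVB mice and was hybridised to 6 two-colour Agilent whole mouse genome arrays. On 2 arrays the red channel (Cy5) held RNA of line fl26 at 2.5 months, transgenic for 15-LOX2, a lipid-oxidising enzyme. On another 2 it held RNA of line svb9 at 2.5 months, transgenic for the enzyme's splice variant b, and on the last 2 RNA of old wild type mice at 15 months. The green channel (Cy3) of all 6 arrays held young wild type RNA, from mice of 2.5 months. Each genotype of transgenic mouse is 1 line, the promoter that drives the transgene is not given in the sources used here, and the RNA was pooled, from 3 mice by the sample labels and from 6 by the design text. The dyes were not swapped, so dye and group cannot be told apart in any ratio over young wild type, while the dye cancels between fl26 and svb9. Duplicate arrays were described as independent samples.

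The green channel was the more even one, with 24825 to 30374 probes well above background per array by the scanner software's own flag. The red channel had 27075 and 17573 such probes on the fl26 arrays, 27813 and 14428 on the svb9 arrays, and 2712 and 12163 on the old wild type arrays. Old wild type array 1 stood apart, and old wild type ratios of the Hox probes are given for each array. Those of Hoxb13 and Hoxc5 rest on array 1 alone. On the Hox probes alone, red signal was well above background for 32 and 15 probes on the fl26 arrays, 31 and 13 on the svb9 arrays, and 3 and 10 on the old wild type arrays. The markers of the ventral prostate tissue were present, with 6 of 6 luminal, 4 of 4 basal and 4 of 4 ventral secretion genes green on all 6 arrays. Of 6 genes of the seminal vesicle and other lobes, Svs2, Svs4 and Svs6 were well above background on no array and Svs5 on 3. Msmb and Tgm4 were green on all 6, at medians of 1088 and 2.02 times background.

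Upstream sequences are shown for 1 undetected anterior gene and for members whose ratios are described below. They are the 250 bases before the start of each gene in RefSeq, GRCm38.p6, written 5′ to 3′ on the gene's own strand, with every CG dinucleotide in capitals. Hoxa2 (chr6:52164832-52165081, minus strand) was undetected in young ventral prostate. Hoxa11 (chr6:52245811-52246060, minus strand) and Hoxa13 (chr6:52260881-52261130, minus strand) had negative mean ratios in old wild type. Hoxb8 (chr11:96281655-96281904, plus strand) had negative ratios on both fl26 arrays.
Hoxa2: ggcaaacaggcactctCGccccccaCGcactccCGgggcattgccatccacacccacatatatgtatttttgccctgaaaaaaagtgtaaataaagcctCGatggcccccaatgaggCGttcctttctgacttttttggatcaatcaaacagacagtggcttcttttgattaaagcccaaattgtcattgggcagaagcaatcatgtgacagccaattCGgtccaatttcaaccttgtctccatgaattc
Hoxa11: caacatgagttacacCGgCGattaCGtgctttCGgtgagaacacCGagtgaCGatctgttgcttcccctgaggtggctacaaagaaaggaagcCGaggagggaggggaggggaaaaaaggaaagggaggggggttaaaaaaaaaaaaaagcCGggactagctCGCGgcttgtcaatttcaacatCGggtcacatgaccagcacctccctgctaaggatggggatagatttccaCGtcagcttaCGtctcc
Hoxa13: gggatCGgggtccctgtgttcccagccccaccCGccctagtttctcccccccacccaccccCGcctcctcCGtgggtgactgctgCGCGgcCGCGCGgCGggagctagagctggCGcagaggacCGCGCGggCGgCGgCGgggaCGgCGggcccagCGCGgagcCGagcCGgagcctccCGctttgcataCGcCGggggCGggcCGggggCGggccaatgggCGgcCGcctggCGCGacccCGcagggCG
Hoxb8: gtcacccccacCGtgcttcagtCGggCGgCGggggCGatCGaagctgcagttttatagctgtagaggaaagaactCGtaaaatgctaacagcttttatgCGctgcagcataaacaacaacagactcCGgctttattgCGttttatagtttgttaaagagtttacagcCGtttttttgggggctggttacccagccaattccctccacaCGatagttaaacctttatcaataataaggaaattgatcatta

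The Hoxa2 stretch holds 6 CG dinucleotides, that of Hoxa11 13, that of Hoxa13 35 and that of Hoxb8 12. A window was given for 22 of the 38 Hox genes, 24 windows in all, whose median was 12.5 CG dinucleotides, against 6 in all 32851 windows of the same length. The windows of the 15 Hox genes that were green on all 6 arrays had a median of 12 and those of the other 7 a median of 13. Of short motifs searched on both strands, CCAAT was in 14 of the 24 Hox windows (58.3%), against 33.8% of all windows. TATAAA was in 4 (16.7%), against 12.4%. TTTAT, which is part of TATAAA read on the other strand, was in 9 (37.5%), against 37.3%. GGGCGG, which itself contains a CG, was in 10 (41.7%), against 32.7%. These are matches of letters and say nothing about binding.

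Which Hox genes were measurable in the young ventral prostate was read from the green channel. In all, 29 Hox probes of 24 genes were well above background on all 6 arrays, 10 probes on some arrays, and 10 on none. That is 59.2% of the Hox probes, against 57.9% of all non-control probes, so Hox probes as a set were detected about as often as probes in general. By gene, taking the better probe, 24 were detected on all 6 arrays, 8 on some and 6 on none.

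Detection was uneven between clusters and along them, as the grid of detection by position shows. On all 6 arrays, 8 of 11 Hoxa genes, 9 of 10 Hoxb genes, 2 of 8 Hoxc genes and 5 of 9 Hoxd genes were well above background. The genes of positions 1 to 3, which act furthest towards the head, counted 3 of 8, those of positions 4 to 8 counted 12 of 15, and those of positions 9 to 13 counted 9 of 15. None of the 3 probed genes at position 1 reached all 6 arrays. The posterior Hoxa genes Hoxa9, Hoxa10, Hoxa11 and Hoxa13 and the posterior Hoxb genes Hoxb9 and Hoxb13 all did. None of the 4 posterior Hoxc genes did, and Hoxc9 and Hoxc13 were detected on no array. The 6 genes well above background on no array were Hoxa2, Hoxb1, Hoxc8, Hoxc9, Hoxc13 and Hoxd1. The software has another flag, for positive and significant signal. By it Hoxc9 and Hoxd1 passed on 6 arrays, Hoxc8 and Hoxc13 on 4, Hoxb1 on 2 and Hoxa2 on 1. In all, 41 of the 49 Hox probes passed that flag on all 6 arrays. The counts by cluster and position are given for signal well above background only.

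**Figure D1:**
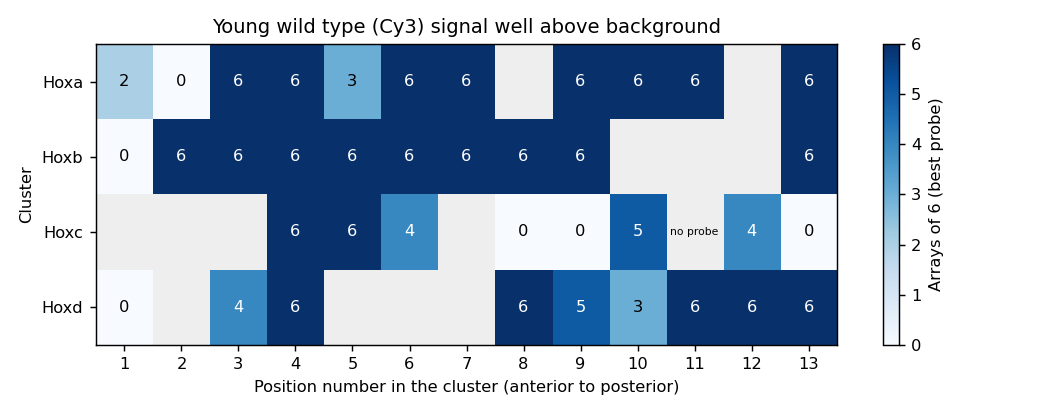
Number of arrays, of 6, on which the young wild type (Cy3) signal of each Hox gene was well above background, by cluster (rows) and position number (columns). The best probe of each gene is shown, pale grey cells hold no gene or, for Hoxc11, no probe, and the Hoxb row is dark from position 2 onwards wherever it holds a gene, while positions 8, 9 and 13 of the Hoxc row are at 0.

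Probes of 1 gene did not always tell the same story. One Hoxa3 probe was detected on all 6 arrays and the other on none, and the same held for Hoxb2. The Hoxb8 probes were detected on 6 and 2 arrays, those of Hoxc10 on 5 and 0, those of Hoxd9 on 5 and 1, and those of Hoxd3 on 4 and 0. The Hoxb3 probe also lists a RefSeq accession of Hoxd3, so its signal may hold both. A gene counted as undetected therefore had no probe well above background, which does not show that the gene was silent.

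How far the green signal stood above background is given for each probe against its own local background, since different probes bind with different strength and are not ranked. Among the 29 probes, the median over the 6 arrays lay between 1.47 and 70.0 times background. The 10 undetected probes gave single values between 1.12 and 1.75 times background. The low end of the detected set overlapped with them, for example Hoxb4 at 1.38 to 1.87 and Hoxd4 at 1.34 to 1.88.

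Hoxb13 had green signals of 87.1, 54.2, 92.9, 60.6, 66.2 and 73.8 times background over the 6 arrays, in the order fl26 1 and 2, svb9 1 and 2, old wild type 1 and 2. Every young wild type channel thus carried a strong Hoxb13 signal, with the highest pair on fl26 array 1 and svb9 array 1. Hoxa11 lay between 6.75 and 8.88 times background and Hoxa10 between 6.23 and 8.50. Hoxd13 lay between 5.85 and 7.91 by its stronger probe, and Hoxa7, a gene of the trunk, between 8.03 and 10.2. Within each of these genes the highest value was less than 2 times the lowest over the 6 young wild type channels.

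Hoxc5 varied more. Its green signal was 12.9 and 14.2 times background on fl26 array 1 and svb9 array 1, and 32.3, 34.8, 35.1 and 31.8 on the other 4 arrays. The low pair were the only arrays run through the Feature Extraction software on the first of 3 dates, and the other dates gave the high values. The split thus follows the run date, in RNA described as young wild type throughout. Duplicate arrays were described as independent samples, so run date and young wild type pool cannot be told apart here. Of the 29 probes, Hoxc5 was the only one with both values of that date below all 4 others, and 24 had both above, as the plot of green signals by run date shows.

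**Figure D2:**
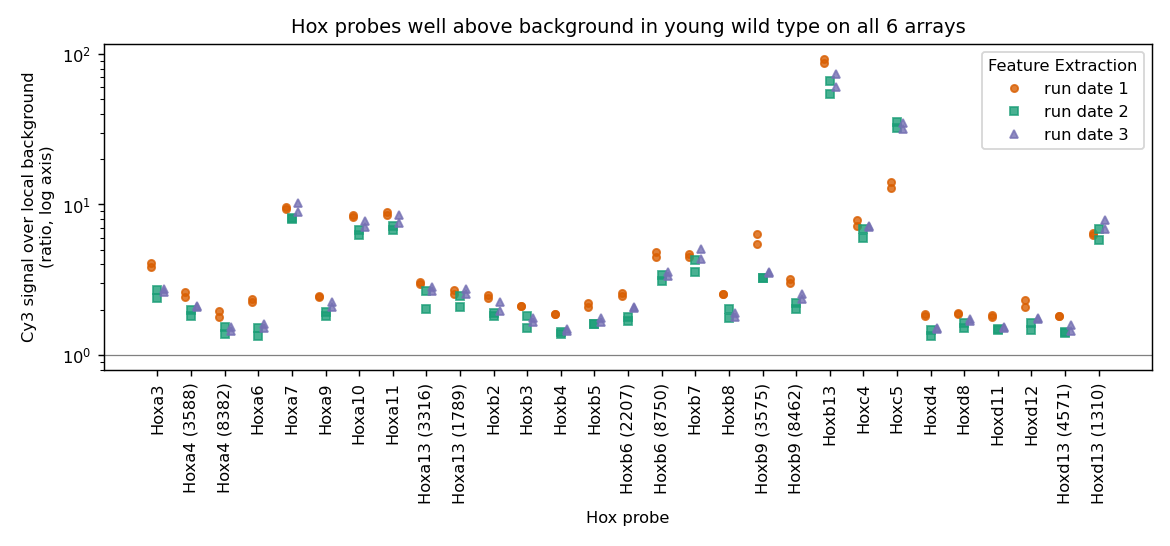
Young wild type (Cy3) signal over its local background, on a log axis, for the 29 Hox probes well above background on all 6 arrays, with 1 point per array marked by Feature Extraction run date. Hoxb13 lies between 54.2 and 92.9, and Hoxc5 shows 12.9 and 14.2 on run date 1 against 31.8 to 35.1 on the other dates.

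Whether Hox expression differed between each red group and young wild type was asked with a linear model of the log2 ratios over all 6 arrays (limma, Benjamini-Hochberg adjustment over all tested probes, threshold 0.05). A positive ratio means more signal in the red group. In the tested set were 36 Hox probes of 31 genes. No Hox probe passed in fl26, where 14 of 27857 probes passed (0.0503%), and none passed in svb9, in old wild type or between fl26 and svb9, where 0 probes passed (0%). The smallest adjusted p among Hox probes was 0.227 in fl26, 0.980 in svb9, 0.191 for old wild type and 1 between fl26 and svb9 (limma). With the replicate number as a block, which the labels do not explain, 3 of the 36 Hox probes passed in fl26, against 998 of 27857 probes. In old wild type 2 of the 36 passed, against 1210 of 27623 probes. These are named with their adjusted p below. With the run date as a block, no Hox probe passed. With 2 arrays a group and red signal often near background, a difference of moderate size may not be detectable.

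At an unadjusted p under 0.05, 7 Hox probes were past the line in fl26 (19.4% of the 36, against 10.2% of all probes), 2 of them higher. Those were Hoxc5 and Hoxa3 on the high side, and Hoxb5, Hoxb7, Hoxb8 and both Hoxb9 probes on the low side. In svb9 they were Hoxc5, higher, and Hoxb4, lower (5.56%, against 4.45% of all probes). In old wild type they were Hoxb2, higher, Hoxa10, Hoxa13 and Hoxc12, lower, and Hoxc5 (13.9%, against 11.4%). Hoxc5 had no value on old wild type array 2, and its sign turned under median centring alone. No direction is therefore given for Hoxc5 in old wild type. Hoxc12 read -0.20 and -0.19. For Hoxc12 and Hoxa13, red signal was well above background on neither old wild type array. Between fl26 and svb9 they were Hoxb7 and Hoxb8, both lower in fl26 (5.56%, against 2.18%).

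The set as a whole was centred near 0 in each group. Over the Hox probes green on all 6 arrays, the median log2 ratio was -0.02 in fl26 (29 probes), against -0.0011 over all such probes. It was 0.0061 in svb9, against -0.0041, and -0.04 in old wild type (27 probes with values on both arrays, medians of -0.0045 and -0.07 on arrays 1 and 2), against -0.02. Both arrays were above 0 for 6 Hox probes in fl26 (20.7%, against 27.6% of all such probes) and below 0 for 11 (37.9%, against 26.6%). In svb9 the counts were 8 above (27.6%, against 27.8%) and 7 below (24.1%, against 28.4%), and in old wild type 7 above (25.9%, against 23.7%) and 12 below (44.4%, against 34.6%).

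**Figure D3:**
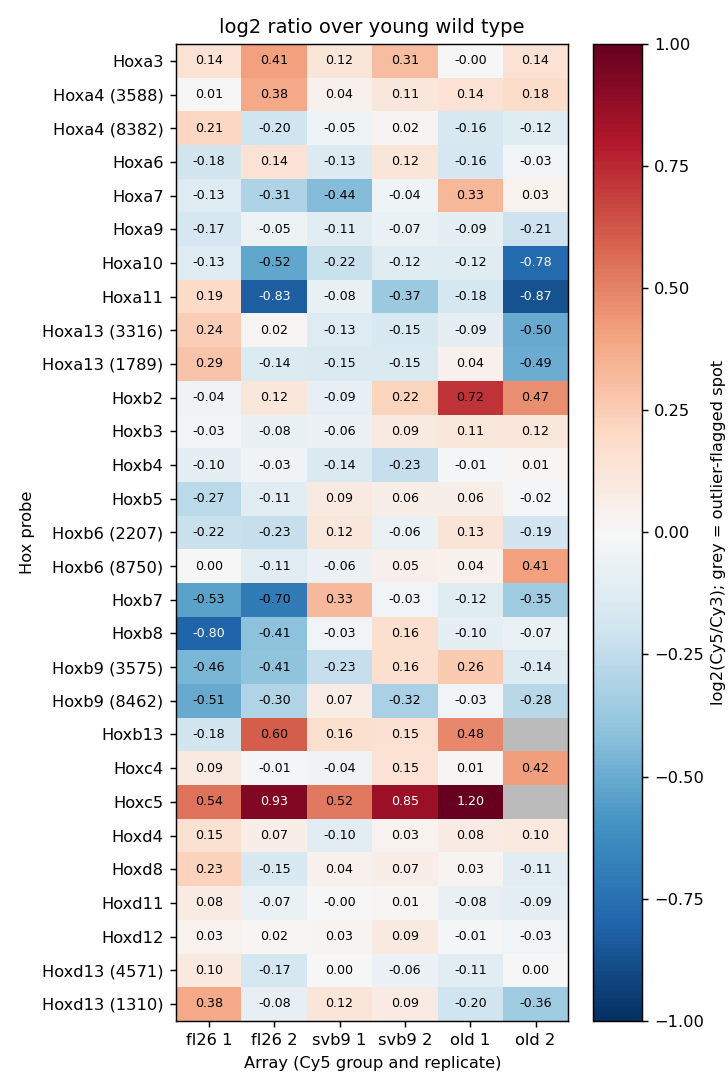
log2 ratio of red group over young wild type (Cy5 over Cy3) for the 29 Hox probes green on all 6 arrays (rows) on each array (columns), with blue for lower and red for higher in the red group and grey for spots left out as outliers; colours reach their limit at 1 and -1. The Hoxb5 to Hoxb9 rows are blue in both fl26 columns apart from 1 Hoxb6 probe, and Hoxc5 is red on every array with a value.

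Hoxb13, the regulator of luminal identity, showed no steady shift. Its log2 ratios were -0.18 and 0.60 in fl26, 0.16 and 0.15 in svb9, and 0.48 on old wild type array 1. The fl26 arrays lay on opposite sides of 0, and the svb9 arrays were close to each other. The mean was 0.21 ± 0.19 (SE, n = 2) in fl26 (adjusted p = 0.756, limma) and 0.16 ± 0.19 in svb9. Here and below the SE is that of the linear model, which pools the spread over all groups. It is not the spread of the 2 arrays of a group. The red spot on old wild type array 2 was flagged as an outlier and left out, so the old wild type value rests on array 1. There the red spot read 178 over a background of 75, against 2849 over 43 in green, and the ratio depended on the normalisation. It was 0.48 after loess and -3.87 after median centring alone, so no direction is given for Hoxb13 in old wild type.

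The Hoxb genes of positions 5 to 9 had the most regular pattern in fl26. They lie side by side in the middle of the Hoxb cluster and specify trunk levels of the embryo. Of their 7 probes green on all 6 arrays, 6 were below young wild type on both fl26 arrays, whereas 0 of 7 were so on both svb9 arrays and 3 of 7 on both old wild type arrays. Across all probes green on all 6 arrays that outcome made up 26.6% for fl26, 28.4% for svb9 and 34.6% for old wild type. This stretch was singled out after its values were seen, and no test of it as a set was made. Luminal and smooth muscle markers had medians below 0 on both fl26 arrays, -0.19 and -0.01 for luminal and -0.03 and -0.27 for smooth muscle. By their brightest probes, Cd24a, Cdh1, Krt18, Cnn1, Des, Myl9 and Tagln were below 0 on both fl26 arrays. Epcam and Actg2 were above 0 on both, and Krt8, Krt19, Acta2 and Myh11 had opposite signs on them. The part of these markers in the Hoxb ratios was not tested.

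Hoxb7 had log2 ratios of -0.53 and -0.70 in fl26, 0.33 and -0.03 in svb9, and -0.12 and -0.35 in old wild type. Both fl26 arrays were below both svb9 arrays and both old wild type arrays. The fl26 mean was -0.62 ± 0.11 (SE, n = 2; adjusted p = 0.232, limma), and the difference of fl26 from svb9 was -0.77 ± 0.16 (unadjusted p = 0.0028, adjusted p = 1, limma). Within the first run date, which holds 1 array of each line, fl26 differed from svb9 by -0.86. Under the replicate block, the fl26 value passed the threshold (adjusted p = 0.0153, limma).

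Hoxb8 had log2 ratios of -0.80 and -0.41 in fl26, -0.03 and 0.16 in svb9, and -0.10 and -0.07 in old wild type. The fl26 values did not overlap with those of the other groups. Its fl26 mean was -0.61 ± 0.11 (SE, n = 2; adjusted p = 0.227, limma), and fl26 differed from svb9 by -0.67 ± 0.16 (adjusted p = 1, limma). Its red signal was not well above background on either fl26 array, so the size of the fold is uncertain. Young wild type was 1.33-fold higher with red set no lower than the lowest detected level of any probe on each array. That level is not a detection limit. It was 5.73 (log2) on fl26 array 1, where an undetected Hoxc9 probe read 6.02 in red. Under the replicate block, the fl26 value passed (adjusted p = 0.0204, limma). The second Hoxb8 probe, green on 2 arrays, was not tested and read 0.00 and 0.11 in fl26.

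Hoxb9, the most posterior of the run, was read by a pair of probes. The first gave -0.46 and -0.41 in fl26, -0.23 and 0.16 in svb9, and 0.26 and -0.14 in old wild type. The second gave -0.51 and -0.30 in fl26, 0.07 and -0.32 in svb9, and -0.03 and -0.28 in old wild type. Both probes thus had negative fl26 means, -0.43 ± 0.13 and -0.40 ± 0.12 (SE, n = 2 each; adjusted p = 0.363 each, limma), though the second overlapped with svb9 and had red signal well above background on 1 fl26 array. Fl26 differed from svb9 by -0.40 ± 0.19 and -0.28 ± 0.17.

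Hoxb5 had -0.27 and -0.11 in fl26, against 0.09 and 0.06 in svb9 and 0.06 and -0.02 in old wild type. Its fl26 mean was -0.19 ± 0.08, with red signal well above background on 1 of the 2 arrays, as for the first Hoxb6 probe. Hoxb6 had -0.22 and -0.23 in fl26, 0.12 and -0.06 in svb9, and 0.13 and -0.19 in old wild type by its first probe, whereas its second probe gave 0.00 and -0.11 in fl26, -0.06 and 0.05 in svb9, and 0.04 and 0.41 in old wild type. The Hoxb6 probes therefore differed in whether fl26 stood apart. Hoxb4, next in the cluster, had -0.10 and -0.03 in fl26 and -0.14 and -0.23 in svb9. Hoxb2 and Hoxb3, at the anterior end, lay between -0.08 and 0.12 in fl26.

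**Figure D4:**
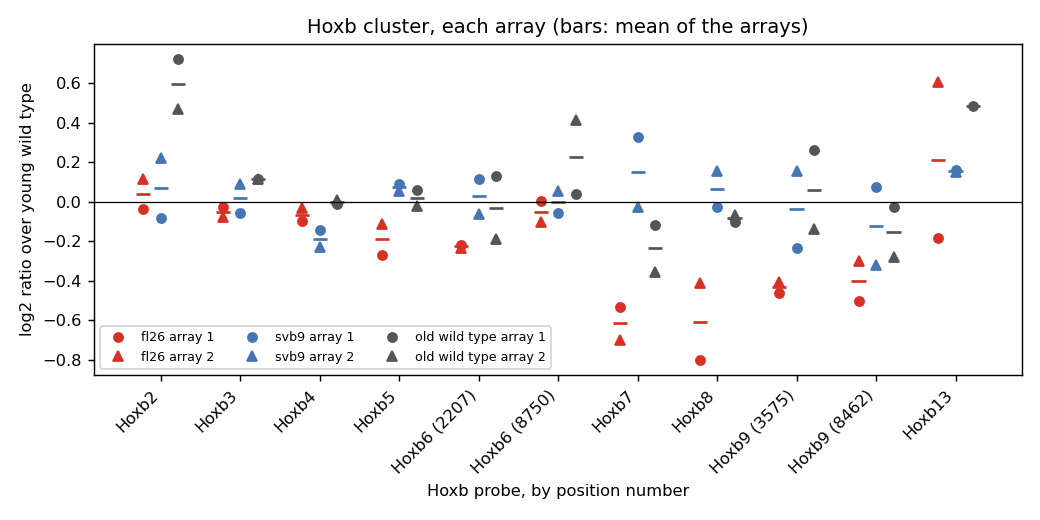
log2 ratio over young wild type of each tested Hoxb probe, in order of position number, with 1 point per array and a bar at the mean for fl26, svb9 and old wild type. From Hoxb5 to Hoxb9 the fl26 points lie at 0.00 or lower, down to -0.80 for Hoxb8, while the svb9 and old wild type points lie on both sides of 0.

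The genes flanking the Hox clusters showed no such run. Of 17 neighbours, 16 had a probe and 14 were green on all 6 arrays, and their median log2 ratio in fl26 was 0.06. The largest fl26 values among them were 0.48 ± 0.17 for Skap2, beside Hoxa, and, by the brighter of its probes, 0.46 ± 0.08 for Cbx1, a heterochromatin protein gene near Hoxb (adjusted p = 0.450 and 0.248, limma). In old wild type Evx1, a homeobox gene at the posterior end of the Hoxa cluster, had 0.71 and 0.34 (mean 0.52 ± 0.11, adjusted p = 0.206, limma). No neighbour passed the threshold in any comparison.

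After loess, Hoxc5 was higher in red on every array on which it had a value. Its log2 ratios were 0.54 and 0.93 in fl26, 0.52 and 0.85 in svb9, and 1.20 on old wild type array 1, with the red spot of array 2 left out as an outlier. The values were alike in the transgenic lines, with a difference of fl26 from svb9 of 0.05 ± 0.19. Since all groups carried the same dye, dye and group cannot be told apart here. Its mean was 0.74 ± 0.13 in fl26 and 0.69 ± 0.13 in svb9 (SE, n = 2 each), and adjusted p was 0.253 for fl26, 0.980 for svb9 and 0.191 for old wild type (limma). The old wild type value was -2.78 under median centring alone, so no direction is given for Hoxc5 in old wild type. With the replicate number as a block, Hoxc5 passed in fl26 (adjusted p = 0.0152) and in old wild type (1.38, adjusted p = 0.00907, limma).

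The posterior Hoxa and Hoxd genes, known for patterning the urogenital tract, had negative mean ratios in old wild type at Hoxa10, Hoxa11, Hoxa13 and Hoxd13. Of the 11 Hox probes of positions 9 to 13 with green signal on all 6 arrays and a ratio on both old wild type arrays, 8 were below 0 on both and none was above 0 on both (72.7% below, against 34.6% of all such probes). No probe among the 11 had red signal well above background on old wild type array 1. Of the 8, Hoxa9, Hoxa13, Hoxd11, Hoxd12 and the second Hoxb9 probe had it on neither old wild type array. Hoxb13, with 0.48 on array 1 and no value on array 2, is not among the 11. In fl26, 4 of 12 were below on both arrays and 2 above, and in svb9 5 were below and 3 above. No difference between these groups was tested for the set.

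Hoxa11 had log2 ratios of -0.18 and -0.87 in old wild type, 0.19 and -0.83 in fl26, and -0.08 and -0.37 in svb9. In each group array 2 was the lower one. The means were -0.52 ± 0.26 for old wild type, -0.32 ± 0.26 for fl26 and -0.23 ± 0.26 for svb9 (SE, n = 2 each), so arrays of 1 group differed by more than the group means did in fl26 and old wild type.

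Hoxa10 had -0.12 and -0.78 in old wild type, -0.13 and -0.52 in fl26, and -0.22 and -0.12 in svb9, all below 0. The old wild type mean was -0.45 ± 0.17 (adjusted p = 0.398, limma). For Hoxa10, Hoxa11 and Hoxd13 the red signal was well above background on 1 old wild type array, array 2, and stood at 1.09, 1.09 and 1.06 times background on array 1. Hoxd13 had -0.20 and -0.36 in old wild type, 0.38 and -0.08 in fl26, and 0.12 and 0.09 in svb9 by its stronger probe. Its weaker probe lay between -0.17 and 0.10 on all arrays. The old wild type mean of the stronger probe was -0.28 ± 0.12 (adjusted p = 0.453, limma).

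Hoxa13 gave -0.09 and -0.50 in old wild type, 0.24 and 0.02 in fl26, and -0.13 and -0.15 in svb9 by one probe, and 0.04 and -0.49 in old wild type, 0.29 and -0.14 in fl26, and -0.15 and -0.15 in svb9 by the other. Red signal was not well above background for either probe on the old wild type arrays. Hoxa9 lay between -0.21 and -0.05 on all 6 arrays.

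Markers of stromal cells were read on the same arrays, each median taken over the genes with a value on that array. The median log2 ratio of 8 fibroblast genes, such as Col1a1 and Lum, was -0.04 and -0.31 in old wild type, 0.76 and -0.13 in fl26, and 0.29 and -0.05 in svb9. Over the 7 of them with a value on both old wild type arrays, the old wild type medians were 0.06 and -0.31. Array 2 was the lower one for 6 of the 7 fibroblast genes with a value on both old wild type arrays, 7 of 7 in fl26 and 6 of 8 in svb9. In the same order it was the lower one for 3, 4 and 4 of 4 endothelial genes and 3, 4 and 3 of 5 leukocyte genes. For luminal genes the counts were 2 of 2, 2 of 6 and 3 of 6, and for basal genes 3 of 3, 3 of 4 and 0 of 4. The share over all probes was not taken. The median of 7 smooth muscle genes, such as Acta2 and Myh11, was -0.03 and -0.27 in fl26 and 0.18 and -0.14 in svb9. In old wild type each array measured 4 of these genes and only Des was on both, at -0.25 and -0.11, so the smooth muscle medians of the old wild type arrays are not set side by side. All 8 fibroblast genes and all 7 smooth muscle genes were green on all 6 arrays, and their part in the Hox ratios was not tested. The 6 luminal markers had medians of -0.19 and -0.01 in fl26 and 0.05 and 0.01 in svb9. In old wild type 5 and 3 of the 6 genes had a value on arrays 1 and 2. Cd24a and Cdh1 were measured on both, with medians of 0.47 and 0.20. Both are bright probes, like those of Hoxb13 and Hoxc5, whose array 1 ratios turned under median centring alone. Marker values under that setting are not given here, so no direction is given for any marker list in old wild type. The basal markers had medians of -0.12 and -0.22 in old wild type over the 3 genes on both arrays, and over all 4 genes 0.59 and 0.29 in fl26 and -0.03 and 0.07 in svb9. In bulk tissue, fewer cells of a type and less RNA per cell cannot be told apart.

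**Figure D5:**
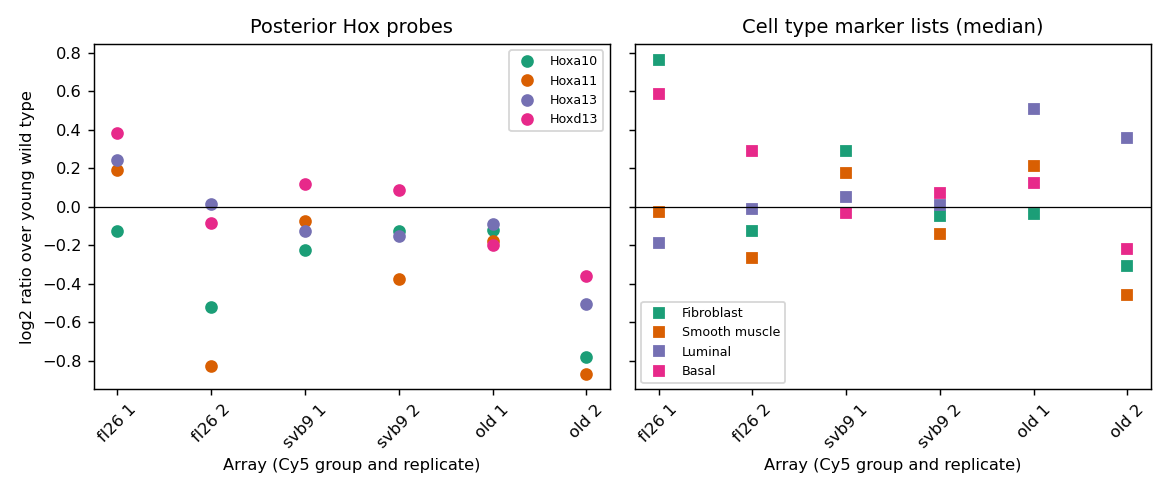
Left, log2 ratio over young wild type of Hoxa10, Hoxa11, Hoxa13 (1 of 2 probes) and Hoxd13 (stronger probe) on each array. Right, the median log2 ratio of 4 cell type marker lists on the same arrays, over the genes with a value on that array, which for smooth muscle in old wild type share only Des. On the second array of each group Hoxa11 reads -0.83, -0.37 and -0.87 from left to right, and the fibroblast median reads -0.13, -0.05 and -0.31.

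Hoxb2, an anterior gene of the hindbrain, had the highest old wild type mean among the Hox probes with both arrays measured. Its detected probe read 0.72 and 0.47 in old wild type, -0.04 and 0.12 in fl26, and -0.09 and 0.22 in svb9. Both old wild type values lay above those of the other groups, and the mean was 0.59 ± 0.11 (SE, n = 2; adjusted p = 0.193, limma). Red signal was well above background on 1 of the old wild type arrays, array 2. On array 1, which gave the higher ratio, red signal stood at 1.25 times background. With the replicate number as a block, Hoxb2 passed in old wild type (adjusted p = 0.0309, limma). The other Hoxb2 probe was well above background on no array. Hoxa7 had 0.33 and 0.03 in old wild type, -0.13 and -0.31 in fl26, and -0.44 and -0.04 in svb9, the lowest svb9 mean of the set at -0.24 ± 0.12. Its old wild type mean turned to -1.40 under median centring alone.

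Among the remaining detected members, Hoxc4 had 0.01 and 0.42 in old wild type and lay between -0.04 and 0.15 in the transgenic lines, and its old wild type mean turned to -1.10 under median centring alone. Hoxa3 was above 0 on both arrays of each transgenic line, with 0.14 and 0.41 in fl26 and 0.12 and 0.31 in svb9, and read 0.00 and 0.14 in old wild type. Hoxa4 had 0.01 and 0.38 in fl26, 0.04 and 0.11 in svb9, and 0.14 and 0.18 in old wild type by its stronger probe, whereas its other probe gave 0.21 and -0.20 in fl26. The old wild type mean of the stronger Hoxa4 probe was -0.0866 under median centring. Hoxd4 had 0.15 and 0.07 in fl26, -0.10 and 0.03 in svb9, and 0.08 and 0.10 for old wild type. Hoxd11 and Hoxd12 lay between -0.09 and 0.09 on all 6 arrays.

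Hox proteins bind DNA with TALE homeodomain cofactors, and 8 of 9 genes of that family (Pbx, Meis and Pknox) were green on all 6 arrays. None passed in any comparison. In fl26, Pknox2 averaged 0.24 ± 0.12 by its brightest probe but -0.17 ± 0.10 by another, and Pknox1 averaged -0.17 ± 0.08. In old wild type, Meis2 read -0.26 and -0.22 by its brightest probe but 1.25 and 0.18 by another, so its probes gave opposite signs. Meis3 read 0.31 and 0.11 in old wild type. Polycomb proteins keep Hox genes silent and Trithorax proteins keep them active. Of 22 such genes 20 were green on all 6 arrays and none passed. By the brightest probe of each gene, Suz12, a subunit of the Polycomb methyltransferase, had the mean furthest from 0 in old wild type and fl26. It was -0.39 ± 0.19 in old wild type and -0.32 ± 0.19 in fl26, with -0.26 ± 0.19 in svb9. That probe read -0.23 and -0.56 in old wild type, 0.02 and -0.66 in fl26, and -0.01 and -0.50 in svb9, again with array 2 the lower in each group. Its other probe read 0.07 and -0.18 in old wild type, -0.15 and -0.15 in fl26, and 0.00 and -0.42 in svb9. The probes thus differed in old wild type and in fl26.

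Of 7 genes known to act upstream of posterior Hox genes in the embryo, 1 was green on all 6 arrays, the growth factor gene Fgf8, and Cdx1, Cdx2 and Cdx4 were detected on no array. Fgf8 read 0.87 and 0.67 in old wild type, -0.21 and 0.26 in fl26, and -0.14 and 0.42 in svb9, with an old wild type mean of 0.77 ± 0.17 (adjusted p = 0.211, limma). All 9 transcription factors of the prostate epithelium on the list were green on all 6 arrays. Among them Spdef, a factor of luminal secretory cells, had the lowest fl26 mean at -0.64 ± 0.09 (adjusted p = 0.166, limma), with -0.63 and -0.65 in fl26, -0.09 and -0.28 in svb9, and -0.14 and 0.12 in old wild type. Gata2 had 0.71 and 0.70 in fl26 but differed more between arrays elsewhere. Foxa1, which opens chromatin for the androgen receptor, had 1.05 and 0.58 in old wild type (mean 0.82 ± 0.16, adjusted p = 0.206, limma). Its mean green level was 10.6 on the log2 scale, against 10.3 for Hoxc5 and 11.1 for Hoxb13 on old wild type array 1. The array 1 ratios of Hoxc5 and Hoxb13 turned under median centring alone. The Foxa1 value under that setting is not given here, so no direction is given for Foxa1 in old wild type.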

How the data were processed

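Total RNA of pooled ventral prostates was labelled and hybridised as pairs to 2-colour arrays. The deposited files give a mean intensity per spot and channel and a median for the local background. The software was Feature Extraction A.7.5.1, by the file headers. They also give log10 ratios of red over green, background-subtracted and dye-normalised by that software per the file headers, used as an alternative. Detection is the software's flag for signal well above background, per the file headers.

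From the intensities, background was corrected by normexp with an offset of 50, each array was normalised by loess, and replicate spots were averaged (limma 3.58.1, R 4.3.3, and data.table at version 1.17.8). Spots flagged as outliers in either channel were left out of ratios and levels. For signal over background and detection they were left out in the flagged channel only. The log2 ratios of the 6 arrays were fitted with a mean per group, tested against 0, 2-sided, and fl26 was tested against svb9. Tested were probes well above background in one channel on both arrays of a group. Every standard error comes from this fit, with a variance pooled over all groups and moderated by limma with that of the other probes. The number of arrays limits the precision, and a p-value measures only the spread between pooled samples.

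Named were Hoxb13, Hox probes past the threshold, in each comparison up to 5 of the largest and 5 of the smallest mean ratios among probes green on all 6 arrays with 1 sign on both, and up to 2 members of each context list. Hoxb5 and Hoxb6 in fl26, the Hoxb run against svb9, and Hoxc5 in old wild type and against svb9, were added after their values were seen. The members and lists were chosen with earlier results of these data known. The fit was tested on simulated data. Alternatives were other background, scaling, filters, run date, replicate block, leaving out each array, and keeping outlier-flagged spots, the last chosen after seeing the data. A deposited series table of the same log10 ratios, rounded, was not used.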

Additional observations from a re-analysis of the deposited data

Results flagged for a closer look

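One Hoxb6 probe had a young wild type (green) level of 6.28 on the log2 scale on fl26 array 2, against 6.46 to 6.50 in the green channel of the other 5 arrays. The gap to its nearest neighbour was 0.787 of the whole range, past Dixon's limit for 6 values. Chance alone passes that limit in about 1 of 20 groups, and 27 of the 29 probes detected on all 6 arrays, those with complete green levels, were screened. Its ratio on that array was -0.23, against -0.22 on fl26 array 1.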

How the results depend on the processing

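Hox probes green on all 6 arrays numbered 29, and 41 by the flag for positive and significant signal. No Hox probe passed in any comparison under the other settings except the replicate block. Probes with an adjusted p under 0.05 (limma) in fl26 numbered 14, and 2 without background correction, 0 with median centring, 6 from the deposited log ratios, 112 with run date as a block, 998 with the replicate block, and 0 to 1 with 1 array left out. In svb9 there were 0, and 12 with the replicate block. In old wild type there were 0, and 11 with run date, 1210 with the replicate block, 32 with outlier-flagged spots kept, 3 with the strict filter, and 0 to 2 with 1 array left out. Between fl26 and svb9 there were 0, and 2 with run date and 10 with the replicate block. With the replicate number as a block, 3 Hox probes passed in fl26, Hoxc5 at 0.74, Hoxb7 at -0.62 and Hoxb8 at -0.61, and 2 in old wild type, Hoxc5 at 1.38 and Hoxb2 at 0.59. Same-numbered arrays deviated together between groups (r = 0.595, 0.344 and 0.174 across probes), but each group has 2 numbers and the labels do not say what a number marks. Median centring moved the median of all probes to 0.10 in fl26 and -0.32 in old wild type. The old wild type Hox median was -0.04, and -0.28 with median centring and -0.11 from the deposited log ratios. The fl26 Hox median was -0.0844 to 0.0046 on single arrays. Under median centring, old wild type means turned to -3.87 for Hoxb13, -2.78 for Hoxc5, -1.40 for Hoxa7, -1.10 for Hoxc4, -0.59 for the second Hoxb6 probe and -0.0866 for Hoxa4, and that Hoxb6 probe to 0.19 in fl26 and 0.11 against svb9. With run date as a block, Hoxb13 turned to -0.0487 in old wild type and -0.35 in fl26 against svb9, and the second Hoxb6 probe to 0.0307 in fl26 and 0.11 against svb9. Leaving out 1 array at a time, Hoxb13 ranged from -0.18 to 0.60 in fl26, turning without fl26 array 2, and from -0.34 to 0.45 against svb9, turning without the same array. The second Hoxb6 probe ranged from -0.11 to 0.0046 in fl26, and from -0.10 to 0.0090 against svb9, turning to 0.0075 without fl26 array 2 and to 0.0090 without svb9 array 2. Hoxc5 against svb9 ranged from -0.15 to 0.24, turning without fl26 array 2 and, to -0.12, without svb9 array 1. The causes were not tested. Signal over background limits the ratios, since red signal was well above background on both arrays for 15 of the tested Hox probes on the fl26 arrays, 13 on those of svb9 and 1 on the old wild type arrays.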
